A study of Saccharomyces cerevisiae with 6 samples.

Results

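Glucose-repressed genes for the use of other carbon sources were followed in budding yeast with and without the prion [GAR+]. The list holds 34 genes of gluconeogenesis, the glyoxylate cycle, the use of ethanol, acetate and lactate, the carnitine shuttle, and the use of galactose, sucrose and maltose. Genes were found through the platform annotation, and where a gene had several probe sets the one with the highest mean signal stands for it. Of the 34 genes, 32 had a probe set of their own, out of 5656 genes tested. MAL12 and MAL32 share a probe set and were not tested. All 6 samples were cultures of the laboratory strain W303, grown in complete synthetic medium with 2% glucose to late exponential phase, at an OD600 of about 0.8. The [GAR+] group was 3 separate cultures that carry the prion, and the [gar-] group was 3 separate cultures that lack it. Poly(A) RNA of each culture was hybridised to 1 Affymetrix array. The labels do not say how many independent [GAR+] isolates the cultures came from. No culture was grown without glucose, so the derepressed level of these genes was not measured here.

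When glucose is plentiful, budding yeast ferments it and keeps the genes for other carbon sources switched off. The repressor Mig1, with Cyc8 and Tup1, sits on many of their promoters, and the kinase Snf1 removes it when glucose runs out. The activators Cat8, Sip4 and Adr1 then turn on genes for ethanol, acetate and lactate, while the galactose and maltose genes also need their sugar and their own activators, Gal4 and the Mal activators. A prion is a protein-based element that daughter cells inherit without a change in DNA, and [GAR+] lets cells use glycerol although glucosamine, a mimic of glucose, is present. The comparison asked whether [GAR+] relieves the repression of these genes in cells growing on glucose itself. The medium is described with glucose as its only sugar. Listed genes that also need galactose or maltose could therefore stay low even if repression were relieved. They say little on this question, although they are included in the counts and medians of the whole list.

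None of the 32 measured genes passed the test for a difference between [GAR+] and [gar-] cultures. In limma, with adjustment by the Benjamini-Hochberg method over all 6504 tested probe sets and a threshold of 0.05, 0 of the 32 were higher and 0 were lower in [GAR+]. Over all tested probe sets 1 passed (0.0154%, or 0.0177% of the 5656 genes), HXT3, a glucose transporter gene that was lower in [GAR+] at a log2 fold change of -5.80. At an unadjusted p under 0.05 the count was 0 of 32, against 157 of 5656 tested genes (2.78%). The 32 log2 fold changes ([GAR+] over [gar-], computed after adding 16 to each signal) ran from -0.39 to 0.31 with a median of 0.02. The median over all tested genes on the same scale was 0.008. Of the 32, 18 lay above 0 (56.2%) and 14 below, and of all tested genes 52% lay above 0. Because RNA was pooled from all cells of a culture, a shift in every cell and one in a few cells cannot be told apart. On this scale no gene of the list differed by 1.5-fold or more in either direction, as 46 of all tested genes did (0.813%). With a pseudocount of 1, 1 listed gene did, SIP4, at 1.62-fold lower in [GAR+], as did 3.57% of all tested genes.

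The intervals say how large a change in signal the 6 arrays leave room for. For genes near background, among them 5 that read above the controls on 0 arrays, they do not bound the change in transcript. On the log2(signal + 16) scale the upper end of the 95% confidence interval was under 2-fold higher in [GAR+] for 31 of the 32 genes, and for 98% of all tested genes. The exception was ATO3, at 2.14-fold. For 26 of the 32 it was under 1.5-fold higher, and for 79.9% of all tested genes. The fit behind these intervals took no account of the culture numbers, which both groups share. With that number as a block in the fit, ATO3 kept its log2 fold change of 0.31. Its standard error was then 0.13, against 0.35 without the block. The scale understates the change of dim genes. With a pseudocount of 1 in place of 16, the upper end was 2-fold or more for 6 genes, ATO3, CRC1, CAT8, SFC1, JEN1 and MAL33, with 2.93-fold for CRC1 as the highest. At that pseudocount, 16 of the 17 genes that read above the controls on every array kept an upper end under 2-fold, the highest of them at 1.99-fold. These controls were chosen after their values were seen, and against the planned set 0 of the 32 genes read above on every array.

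**Figure D1:**
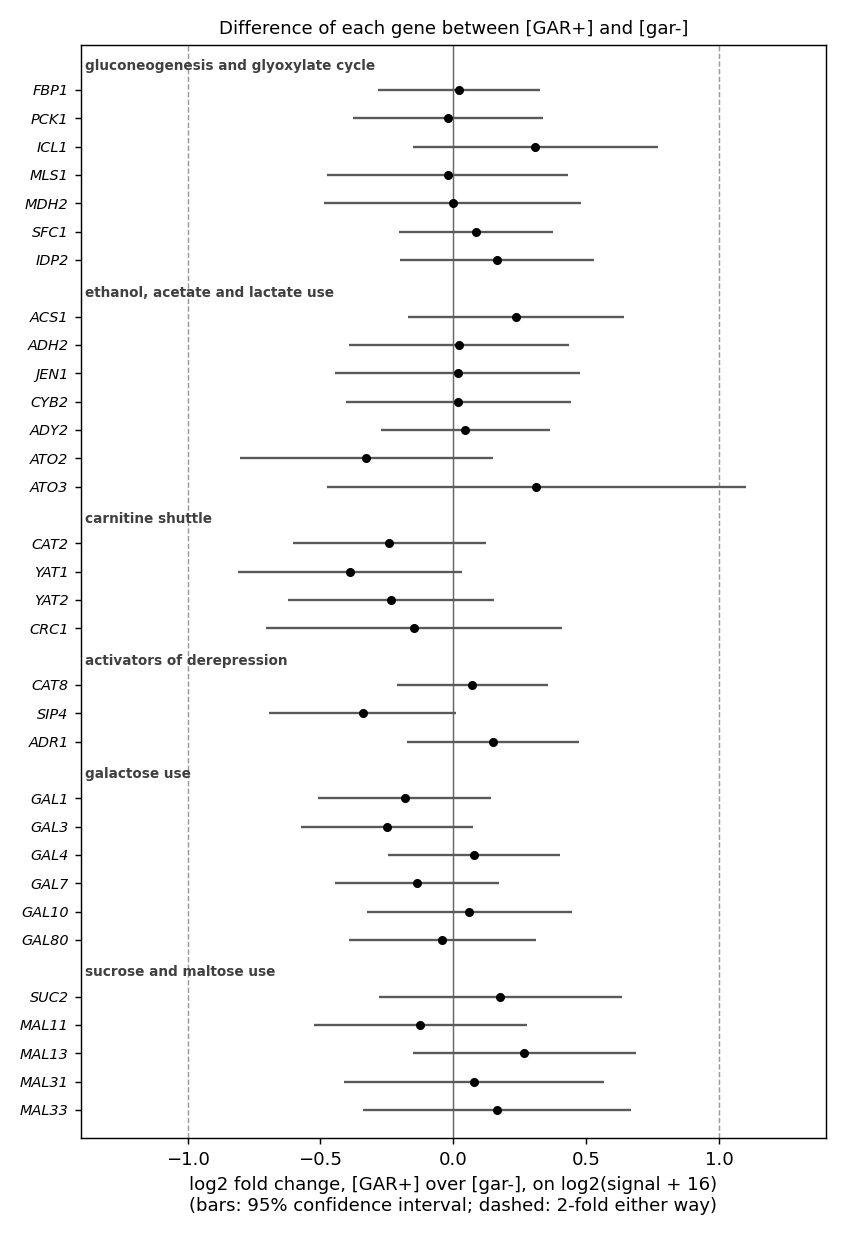
Log2 fold change of [GAR+] over [gar-] for each of the 32 measured genes, after adding 16 to each signal, with its 95% confidence interval from limma. The fit left out the culture number. All 32 intervals include 0, and 31 of them lie between the dashed lines at 2-fold in either direction. That of ATO3 extends past the upper line. With the culture number as a block, ATO3, YAT1 and SIP4 had an unadjusted p under 0.05 in limma, and 0 of the 32 genes passed.

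**Figure D2:**
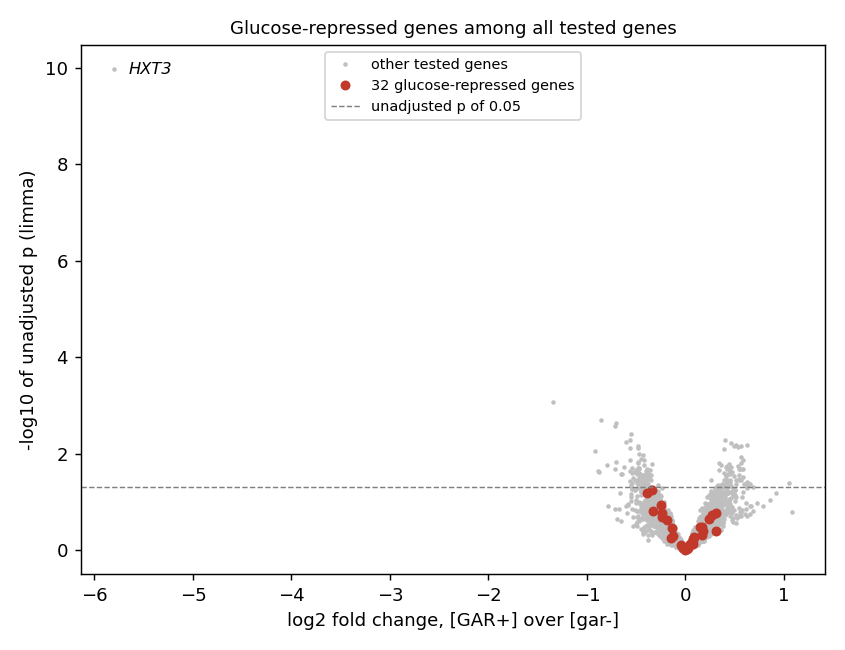
Each tested gene by its log2 fold change of [GAR+] over [gar-] and the -log10 of its unadjusted p in limma, with the 32 glucose-repressed genes in red. The red points lie between -0.39 and 0.31, all below the dashed line of the unadjusted threshold of 0.05, while HXT3 stands alone at -5.80.

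The deposited arrays did not share a scale, with trimmed mean signals of 192 to 500 in the [GAR+] cultures and 250 to 295 in the [gar-] cultures, so all values below are signals after quantile normalization. Same-numbered cultures of the groups deviated together from their group means (correlations of 0.322, 0.347 and 0.346 over the tested probe sets). On the first principal component the 2 arrays with culture number 2 were far from the rest, at 22.0 for [GAR+] and 12.4 for [gar-], where the other 4 arrays lay between -10.1 and -7.96. Without both of them the listed genes had a median log2 fold change of 0.03, and again 0 passed. The a-specific genes that mark the mating type read above the controls on all arrays (6 of 6 genes, a summed signal of 6411 to 8518 in [GAR+] and 5334 to 6767 in [gar-]), with MFA1 at a log2 fold change of 0.63 and AGA2 at 0.22. Of 4 alpha-specific genes 1 read above them on all arrays (summed signal 108 to 138 in [GAR+] and 103 to 116 in [gar-]), with a log2 fold change of 0.39 for MF(ALPHA)1 and of 0.19 for MF(ALPHA)2. Of 8 genes of meiosis and sporulation 2 did (141 to 202 in [GAR+] and 149 to 206 in [gar-]). Among these 8, NDT80 gave -0.27 and SPO11 0.39, with SPO11 below the controls on every array. The medians of these 3 lists were 0.14, 0.11 and -0.003, and no gene of them passed.

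The table holds no detection calls, so each gene was set against the highest of 16 non-yeast control probe sets on the same array. With so few controls this is a rough level of background. The highest control read 18.8, 15.1 and 20.2 on the arrays of [GAR+] cultures 1, 2 and 3, and 27.6, 21.4 and 12.7 on those of [gar-] cultures 1, 2 and 3. On all 6 arrays 17 of the 32 genes lay above it (53.1%), as did 4961 of all tested genes (87.7%). This set of controls was chosen after its values were seen. The planned set also held the Dap, Lys, Phe and Thr probe sets, which read 281 to 723 as the highest of an array, and against it 0 of the 32 genes lay above on all arrays (14.6% of all tested genes). The 17 were PCK1, ICL1, MDH2, IDP2, ACS1, ADH2, CYB2, ATO3, CAT2, YAT1, YAT2, GAL3, GAL80, SUC2, MAL11, MAL13 and MAL31. FBP1, MLS1, SFC1, CRC1 and CAT8 lay above it on 0 of the 6 arrays, so their signals are not clearly above background in either group. The other 10 genes lay above it on 1 to 5 arrays.

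**Figure D3:**
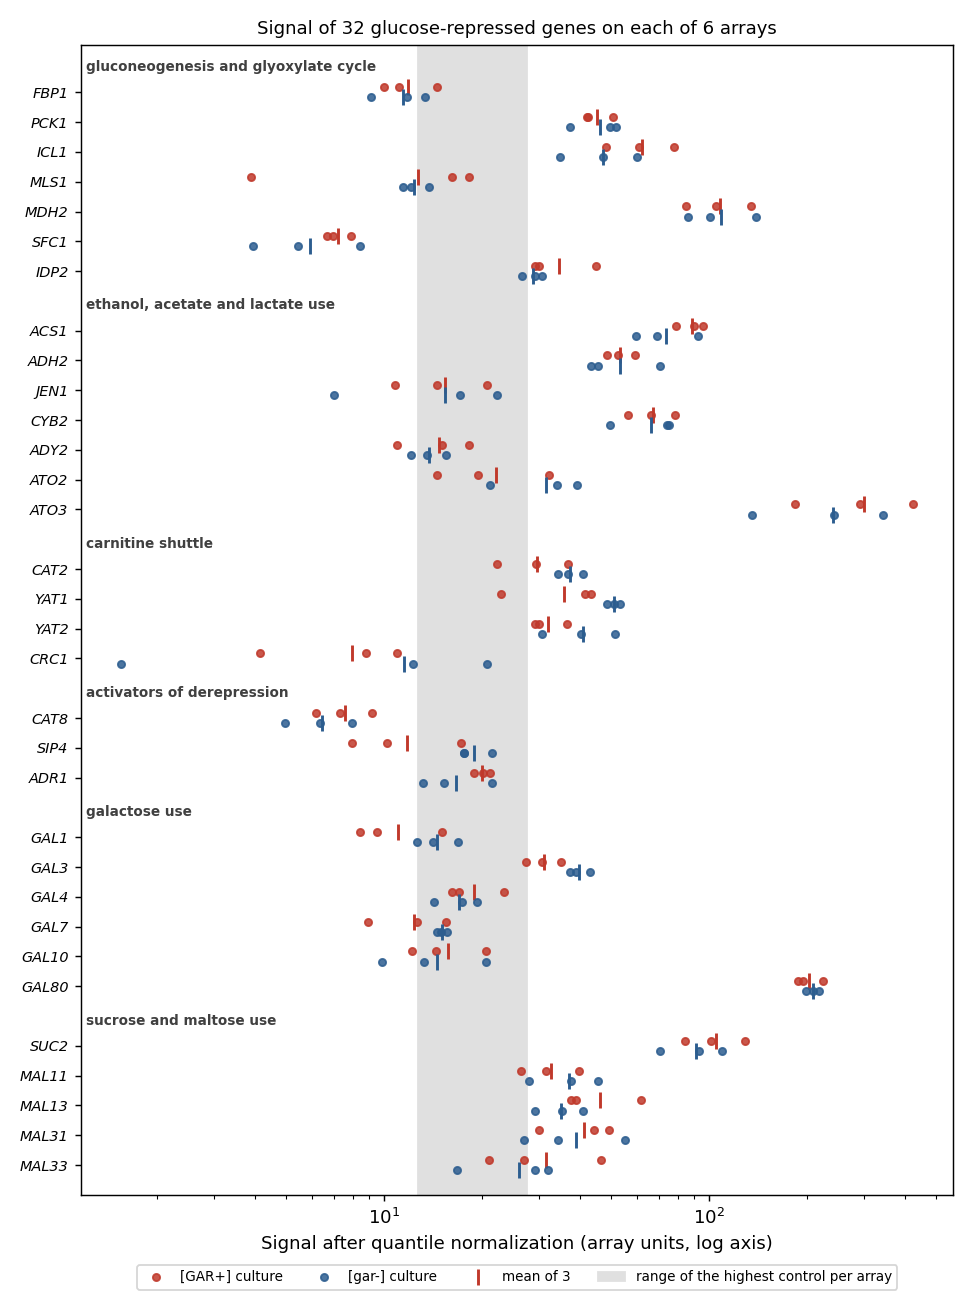
Normalized signal of the 32 genes on a log axis, grouped by role, with the 3 [GAR+] cultures in red above the 3 [gar-] cultures in blue and a vertical tick at each group's mean. The grey band spans the highest control probe set of each array, 12.7 to 27.6, and the groups overlap for 29 of the 32 genes, the exceptions being YAT1, SIP4 and GAL3.

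Among the 7 genes of gluconeogenesis and the glyoxylate cycle, 0 passed, 4 lay above 0 and 3 below, and the median log2 fold change was 0.02. FBP1 (YLR377C) encodes fructose-1,6-bisphosphatase, which commits carbon to gluconeogenesis. Its signal was 14.5, 9.96 and 11.1 in [GAR+] cultures 1, 2 and 3, against 13.4, 11.8 and 9.09 in [gar-] cultures 1, 2 and 3. Both groups covered the same narrow and dim range, and the log2 fold change was 0.02 with a standard error of 0.14. PCK1 (YKR097W) encodes phosphoenolpyruvate carboxykinase, which starts the path from oxaloacetate to glucose. PCK1 read 42.5, 50.7 and 42.1 in the [GAR+] cultures, against 37.2, 51.9 and 49.4 in the [gar-] cultures. These groups overlapped, at a log2 fold change of -0.02 with a standard error of 0.16 and a 95% interval of 0.769 to 1.26-fold.

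ICL1 (YER065C) encodes isocitrate lyase, the first enzyme particular to the glyoxylate cycle, and had the highest log2 fold change of these 7 genes. It read 60.7, 78.1 and 48.1 in [GAR+] cultures 1, 2 and 3, against 60.0, 34.8 and 47.0 in [gar-] cultures 1, 2 and 3. The groups overlapped, and the gap came from the cultures numbered 2. ICL1 had a log2 fold change of 0.31 with a standard error of 0.21 (unadjusted p = 0.166 in limma), and without both arrays numbered 2 it was 0.02. MLS1, the gene of malate synthase, the next enzyme of that cycle, read 18.2, 3.89 and 16.1 in [GAR+], against 11.4, 13.7 and 12.1 in [gar-]. Its lowest value was that of [GAR+] culture 2, and the other 5 lay close together, and all 6 were under the highest control.

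MDH2, SFC1 and IDP2 serve the same metabolism. MDH2 encodes the cytosolic malate dehydrogenase, SFC1 the mitochondrial carrier that exchanges succinate for fumarate, and IDP2 a cytosolic isocitrate dehydrogenase that yields NADPH. MDH2 averaged 108 ± 24.9 in [GAR+] and 109 ± 27.6 in [gar-] (SD, n = 3 each). IDP2 read 29.1, 29.9 and 45.0 in the [GAR+] cultures, against 30.6, 29.1 and 26.6 in the [gar-] cultures. Only [GAR+] culture 3 stood above the other 5 arrays for IDP2, and its log2 fold change was 0.16 with a standard error of 0.16. SFC1 averaged 7.19 ± 0.652 in [GAR+] and 5.93 ± 2.28 in [gar-] (SD, n = 3 each), below the controls on every array.

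Of the 7 genes for ethanol, acetate and lactate, 0 passed, 6 lay above 0 and 1 below, and the median log2 fold change was again 0.02. ADH2 (YMR303C) encodes the alcohol dehydrogenase that oxidises ethanol and is a classic target of glucose repression. It read 48.6, 59.0 and 52.4 in the [GAR+] cultures, against 43.4, 70.8 and 45.5 in the [gar-] cultures. The [gar-] cultures enclosed the [GAR+] values, at a log2 fold change of 0.02 with a standard error of 0.18. ACS1, the gene of the acetyl-CoA synthetase used on acetate, read 79.4, 90.1 and 96.0 in [GAR+], against 69.1, 59.5 and 92.5 in [gar-]. At each culture number ACS1 was higher in [GAR+], but the groups overlapped and the log2 fold change of 0.23 had a standard error of 0.18.

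JEN1 encodes the permease for lactate and pyruvate, and CYB2 the mitochondrial enzyme that oxidises lactate. JEN1 read 20.7, 10.8 and 14.6 in the [GAR+] cultures, against 7.00, 17.1 and 22.2 in the [gar-] cultures, which enclose them. Its mean was 15.4 in both groups, near the control level, and the log2 fold change was 0.02. CYB2 averaged 67.0 ± 11.1 in [GAR+] and 66.4 ± 14.5 in [gar-] (SD, n = 3 each), a log2 fold change of 0.02 with a standard error of 0.19.

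ADY2, ATO2 and ATO3 encode related plasma membrane proteins of acetate and ammonium transport. ADY2, the acetate transporter gene, averaged 14.7 ± 3.63 in [GAR+] and 13.7 ± 1.69 in [gar-] (SD, n = 3 each). Its signal was above the controls on 2 arrays only. ATO2 read 32.1, 14.6 and 19.4 in the [GAR+] cultures, against 39.3, 21.2 and 33.9 in the [gar-] cultures. ATO2 was thus lower in [GAR+] at each culture number, with a log2 fold change of -0.33, a standard error of 0.21 and overlapping groups. Only 3 arrays put ATO2 above the controls, so part of this difference lies near background. ATO3 (YDR384C) read 291, 425 and 184 in [GAR+] cultures 1, 2 and 3, against 243, 344 and 136 in [gar-] cultures 1, 2 and 3. In both groups culture 2 was highest and culture 3 lowest, so ATO3 varied more between culture numbers than between the groups. Its log2 fold change was 0.31 with a standard error of 0.35, and with 1 array left out it ran from -0.03, without [gar-] culture 3, to 0.60, without [GAR+] culture 3. With the culture number as a block the unadjusted p in limma was 0.0454, against 0.396 without it, and the adjusted p was 0.735 with the block. Under that block 3 of the 32 genes, ATO3, YAT1 and SIP4, had an unadjusted p below 0.05 (9.38%, against 6.61% of all tested genes), and 0 passed.

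All 4 genes of the carnitine shuttle, which carries acetyl units into mitochondria, had log2 fold changes below 0, with a median of -0.24, and 0 passed. YAT1 (YAR035W), the gene of a carnitine acetyltransferase on the outside of mitochondria, had the lowest log2 fold change of the 32 on the log2(signal + 16) scale, while SIP4 was lower with a pseudocount of 1 and without between-array normalization. It read 43.2, 22.9 and 41.5 in [GAR+] cultures 1, 2 and 3, against 50.9, 48.4 and 53.1 in [gar-] cultures 1, 2 and 3. Every [GAR+] culture was thus below every [gar-] culture, and [GAR+] culture 2 was the farthest away. The log2 fold change was -0.39 with a standard error of 0.19 (unadjusted p = 0.0657 in limma), and it was -0.20 without [GAR+] culture 2. CAT2, the main carnitine acetyltransferase gene, read 36.8, 22.2 and 29.4 in [GAR+], against 34.2, 40.8 and 36.8 in [gar-]. Here too the lowest array was that of [GAR+] culture 2, but the groups overlapped, at a log2 fold change of -0.24 with a standard error of 0.16.

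YAT2, another carnitine acetyltransferase gene, averaged 31.9 ± 3.99 in [GAR+] and 40.8 ± 10.4 in [gar-] (SD, n = 3 each), with a log2 fold change of -0.23. It was lower in [GAR+] at each culture number, and the groups overlapped. CRC1, the gene of the mitochondrial carnitine carrier, read 11.0, 8.76 and 4.15 in [GAR+], against 1.55, 20.7 and 12.3 in [gar-]. CRC1 spanned 13.4-fold from its lowest to its highest array, both of them [gar-], and lay below the controls throughout.

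The 3 activators of derepression gave 2 values above 0 and 1 below, and 0 passed. CAT8 (YMR280C), which encodes the activator of gluconeogenic genes, read 9.15, 7.33 and 6.18 in the [GAR+] cultures, against 4.93, 7.98 and 6.33 in the [gar-] cultures. These signals were below the controls on every array and overlapped, at a log2 fold change of 0.07 with a standard error of 0.13. SIP4 (YJL089W) encodes an activator of the same promoters. Its signal was 17.2, 7.94 and 10.2 in [GAR+], against 21.4, 17.6 and 17.7 in [gar-]. The highest [GAR+] value was just under the lowest [gar-] value, and only [gar-] culture 3 exceeded the highest control of its array. The log2 fold change was -0.34 with a standard error of 0.16 (unadjusted p = 0.0560 in limma), and it was -0.70 with a pseudocount of 1. ADR1, the gene of the activator of ADH2 and of peroxisomal genes, averaged 20.0 ± 1.15 in [GAR+] and 16.7 ± 4.32 in [gar-] (SD, n = 3 each), a log2 fold change of 0.15 with a standard error of 0.14.

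Among the 6 genes of galactose use, 0 passed, 2 lay above 0 and 4 below, with a median log2 fold change of -0.09. GAL1, GAL7 and GAL10 encode galactokinase, the uridylyltransferase and the epimerase, and in the gene table of assembly R64 they are neighbours on chromosome II with no other protein-coding gene between them. GAL1 read 15.1, 9.49 and 8.43 in the [GAR+] cultures, against 16.9, 12.6 and 14.1 in the [gar-] cultures. GAL7 averaged 12.3 ± 3.30 in [GAR+] and 15.0 ± 0.558 in [gar-], and GAL10 15.7 ± 4.35 in [GAR+] and 14.6 ± 5.53 in [gar-] (SD, n = 3 each). Each of these 3 genes was above the controls on 1 array only, and their log2 fold changes of -0.18, -0.14 and 0.06 had standard errors of 0.14 to 0.17.

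The regulators of the galactose genes read higher above background, apart from GAL4. GAL3 (YDR009W) encodes the galactose sensor that frees Gal4 from its inhibitor Gal80. It read 35.1, 30.5 and 27.3 in [GAR+] cultures 1, 2 and 3, against 38.8, 43.1 and 37.4 in [gar-] cultures 1, 2 and 3. The groups did not overlap, with [GAR+] the lower, at a log2 fold change of -0.25 with a standard error of 0.14 (unadjusted p = 0.115 in limma). GAL80 averaged 203 ± 19.4 in [GAR+] and 208 ± 9.66 in [gar-] (SD, n = 3 each), and its 6 arrays spanned only 1.20-fold. GAL4, the activator gene, averaged 18.9 ± 3.94 in [GAR+] and 17.0 ± 2.52 in [gar-], a log2 fold change of 0.08.

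For sucrose and maltose, 5 of the 7 genes were measured, 0 passed, 4 lay above 0 and 1 below, and the median log2 fold change was 0.16. SUC2 (YIL162W) encodes invertase, which splits sucrose and is a standard reporter of glucose repression by Mig1. It read 102, 129 and 84.4 in the [GAR+] cultures, against 93.4, 109.5 and 70.4 in the [gar-] cultures. At each culture number SUC2 was higher in [GAR+], by less than the cultures of a group differed, and in both groups culture 2 was highest and culture 3 lowest. The log2 fold change was 0.18 with a standard error of 0.20. SUC2 has 2 further probe sets, which gave log2 fold changes of -0.19, with a mean of 84.5 in [GAR+] and 97.8 in [gar-], and -0.02, with a mean of 0.423 in [GAR+] and 0.698 in [gar-]. The dimmest of the 3 lay above the controls on 0 of the 6 arrays, so its sign carries no information. The 2 brighter ones disagreed in sign, and each value was smaller than its own standard error of 0.20. Their names carry a suffix (g or s) that the dimmest lacks, so their signal may not be that of SUC2 alone.

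The maltose genes lie in clusters of a transporter, a maltase and an activator, MAL13, MAL11 and MAL12 on chromosome VII and MAL33, MAL31 and MAL32 on chromosome II. MAL11 and MAL31, the transporter genes, gave log2 fold changes of -0.12 and 0.08 with standard errors of 0.18 and 0.22. MAL13, an activator gene, read 39.0, 61.7 and 37.6 in [GAR+], against 40.9, 35.3 and 29.1 in [gar-]. Its highest array was that of [GAR+] culture 2, the groups overlapped, and the log2 fold change of 0.27 had a standard error of 0.19. MAL33, the other activator gene, averaged 31.5 ± 13.3 in [GAR+] and 25.9 ± 8.07 in [gar-] (SD, n = 3 each), a log2 fold change of 0.16. The probe set of MAL31 carries the array's suffix for sequence shared with other genes, so its signal may not be that of MAL31 alone. The probe set shared by the maltase genes MAL12 and MAL32 read 18.6, 17.9 and 15.2 in [GAR+], against 10.6, 19.3 and 20.5 in [gar-], and cannot be assigned to either gene. A probe set shared by MAL33 and YPR196W read 162, 202 and 159.8 in [GAR+], against 124, 93.4 and 167 in [gar-]. Its groups overlapped and its log2 difference was 0.43, above that of any listed gene, on a probe set that was not tested.

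Groups did not overlap for 3 of the 32 genes, YAT1, SIP4 and GAL3, all lower in [GAR+]. That is 9.38% of the list, against 8.98% of all tested genes in either direction and 4.56% lower in [GAR+]. None of the 32 was higher in [GAR+] without overlap, as 4.42% of all tested genes were. At all 3 culture numbers [GAR+] was higher for 4 genes (ACS1, SUC2, ICL1 and ATO3; 12.5%, against 15.4% of all tested genes). It was lower for 6 (SIP4, YAT1, YAT2, GAL3, GAL1 and ATO2; 18.8%, against 14.1%).

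The list did not move as a block at any culture number. The median log2 difference of same-numbered cultures, [GAR+] minus [gar-], was 0.07, -0.04 and -0.03 for numbers 1, 2 and 3, with 19, 14 and 13 of the 32 genes above 0. No gene of the list differed by 2-fold or more at any number. The values ran from -0.37 to 0.67 at number 1, from -0.73 to 0.89 at number 2 and from -0.50 to 0.52 at number 3. The wider spread at number 2 was shared by all tested genes, of which 1.47% were at least 2-fold higher and 1.31% at least 2-fold lower in [GAR+] there, against at most 0.248% in either direction at the other numbers. The 3 cultures ranked alike in both groups for 9 of the 32 genes (28.1%), ADH2, ATO2, ATO3, YAT2, SIP4, GAL4, SUC2, MAL31 and MAL33, as for 28.6% of all tested genes.

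**Figure D4:**
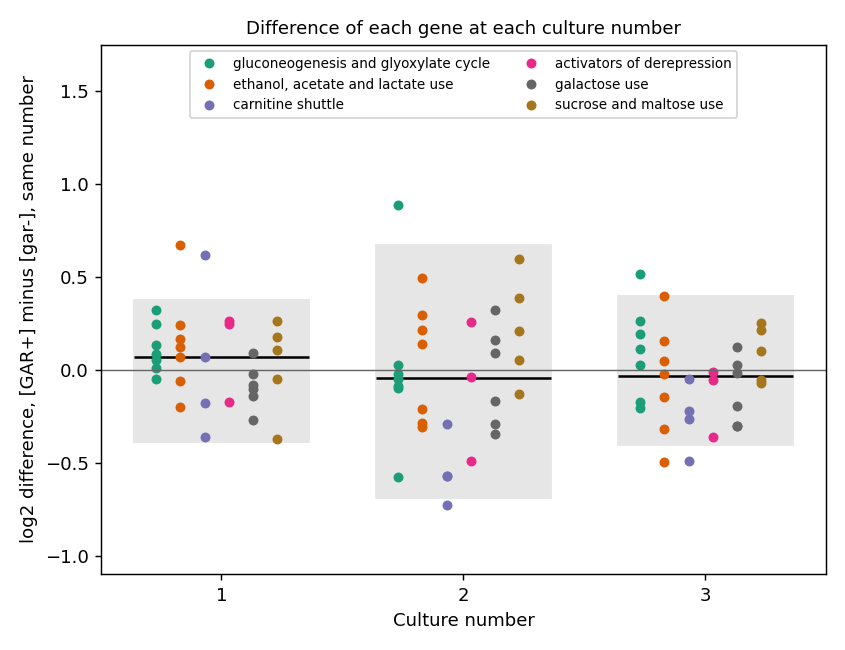
Log2 difference of [GAR+] minus [gar-] at each culture number for the 32 genes, coloured by role, with a black line at their median and a grey box from the 5th to the 95th percentile of all tested genes. The medians lie at 0.07, -0.04 and -0.03, and the genes scatter on both sides of 0 at each number, most widely at number 2.

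Further genes of the same metabolism and of its control were read on the same arrays. Of 26 genes of the Snf1 kinase, Mig1 repression and related regulators, 0 passed, 14 lay above 0 and 12 below, and the median log2 fold change was 0.05. SNF1, the gene of the kinase that lifts repression, read 285, 242 and 274 in [GAR+], against 217, 211 and 194 in [gar-]. GLC7, the gene of the phosphatase that opposes Snf1, read 743, 768 and 809 in [GAR+], against 558, 652 and 631 in [gar-]. For both genes each [GAR+] culture exceeded each [gar-] culture, at log2 fold changes of 0.34 and 0.33 with unadjusted p of 0.0554 and 0.0453 in limma, and neither passed (adjusted p = 1.00 for both). A second probe set of GLC7 gave 0.48, with overlapping groups. SNF1 and GLC7 were named because their unadjusted p in limma was the smallest of the 26. Without overlap 2 of the 26 were higher and 0 lower in [GAR+], against 4.42% and 4.56% of all tested genes.

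Of 20 genes of peroxisomal fatty acid oxidation and targets of Oaf1, Pip2 and Adr1, 0 passed, 8 lay above 0 and 12 below, with a median of -0.12. FOX2, a beta-oxidation enzyme gene, gave -0.28. CIT2, the peroxisomal citrate synthase gene, read 937, 468 and 418 in [GAR+] cultures 1, 2 and 3, against 1267, 879 and 673 in [gar-] cultures 1, 2 and 3. CIT2 was lower in [GAR+] at each culture number while the groups overlapped, at a log2 fold change of -0.66 with an unadjusted p of 0.0639 in limma and of 0.00114 with the culture number as a block (adjusted p = 0.735 with the block). Of 21 further genes for acetate, pyruvate and the glyoxylate cycle, 0 passed, 10 lay above 0 and 11 below, with a median of -0.04. CIT2 and MDH3 were counted in this list as well as in the peroxisomal one. Without overlap 0 of the 21 were higher and 2 lower in [GAR+], against 4.42% and 4.56% of all tested genes. DAL7, the gene of a second malate synthase that serves allantoin use, read 38.8, 36.1 and 28.0 in [GAR+], against 65.3, 68.3 and 48.4 in [gar-]. Its groups did not overlap, and the log2 fold change of -0.60 had a standard error of 0.17. That of its paralogue MLS1 was -0.02 with a standard error of 0.20, from signals below the controls on every array. With a pseudocount of 1 MLS1 gave -0.19 with a standard error of 0.50. CIT3, a mitochondrial citrate synthase gene, gave -0.35, with a signal above the controls on 1 array only. Of 12 further genes for galactose, maltose and isomaltose 8 were measured, 0 passed, 3 lay above 0 and 5 below, with a median of -0.02. Without overlap 1 of the 8 was higher and 0 lower in [GAR+]. MTH1 was counted in this list, although it encodes a co-repressor of hexose transporter genes. It read 42.1, 60.3 and 36.6 in [GAR+], against 27.4, 19.1 and 25.7 in [gar-], above the controls on 4 arrays only. MTH1 was not above them in [gar-] cultures 1 and 2, and its log2 differences at numbers 1, 2 and 3 were 0.42, 1.12 and 0.33. Its groups did not overlap, with [GAR+] the higher, and the log2 fold change of 0.62 had a standard error of 0.18 (unadjusted p = 0.00650 and adjusted p = 1.00 in limma). IMA5, an isomaltase gene, gave 0.22, where [GAR+] averaged 5.80 and [gar-] 2.87, below the controls on every array.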

How the data were processed

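The deposited table holds 1 linear signal intensity per probe set and array. The signals were made with MAS5 and GCOS, per the submitters' processing notes; no version or scaling target is given in the sources used here. Arrays were grouped by their titles. The 6 arrays were quantile-normalized over 9335 probe sets and analysed as log2(signal + 16), as the arrays did not share a scale. The platform annotation gave 6504 probe sets exactly 1 gene. Tests used limma 3.58.1 (R 4.3.3; lmFit, eBayes with an intensity trend), two-sided, with no covariate and Benjamini-Hochberg adjustment. The steps were tested on simulated data, with changes placed only in probe sets above the median signal and errors drawn independently for each array. Most listed genes are dimmer than that, so the simulation does not show how well changes in them would be found. Precision is limited by the number of arrays, with a median standard error of 0.176 over the listed genes and 0.179 over all tested genes.

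The members, the 7 further lists and the naming rule were chosen with earlier results of these data known. The rule takes all listed genes, HXT3, and of each further list up to 4 that pass or else the 2 of smallest p. The control level was planned with the Dap, Lys, Phe and Thr probe sets. These read up to 723 after normalization, so the 16 other non-yeast controls (antisense, mouse and Trp sets) were used, a choice made after seeing the values. Culture numbers were treated as pairs from the correlations of same-numbered arrays only. A second fit took the culture number as a block. Alternatives covered scaling, pseudocount, a filter on dim probe sets, the choice of probe set, and arrays left out.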

Additional observations from a re-analysis of the deposited data

How the results depend on the processing

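In limma 0 listed genes passed in either direction under each of the 16 alternatives, and HXT3's probe set was the 1 that passed. The smallest adjusted p of a listed gene was 0.735, with the replicate block (unadjusted p under 0.05 for 3 of 32, against 6.61% of all tested genes). The block changed no call. Of the 32 genes, 16 kept the sign of their log2 fold change in every alternative that measured them, among them YAT1, SIP4, GAL3, ATO2, CAT2, YAT2, ICL1 and ACS1, and 16 took both signs. Without between-array normalization the median of all genes moved to 0.16, that of the listed genes was 0.13, 0.03 below it, 0 groups lay apart downward, and the meiosis list lay at -0.052 relative to all genes. With a mean signal of at least 32, 16 listed genes remained, 8 of them above 0 and 8 above the median of all genes, 15 with an upper bound under 2-fold, and the meiosis list lay at -0.19. The number with an upper bound under 2-fold was 23 without normalization and 26 with a pseudocount of 1. With 1 array left out in turn, 0 to 2 listed genes were higher without overlap (8.13% to 10.3% of all tested genes; 2 without any 1 [gar-] culture) and 4 to 7 lower (7.97% to 10.4%). The 7 (21.9%, against 8.91% of all tested genes) were without [GAR+] culture 1, and 5 (15.6%, against 7.97%) without [gar-] culture 1. With 1 array left out the median ran from -0.04 to 0.06, and 12 to 21 genes lay above 0. The meiosis list then ran from -0.047 to 0.029 relative to all genes. Without both arrays numbered 2, 4 were higher (SFC1, SUC2, MLS1 and ADH2) and 5 lower without overlap, where 16.2% and 15.5% of all genes were. The meiosis list then lay at 0.065 and the further galactose and maltose genes at 0.094 relative to all genes. Fewer arrays make non-overlap more frequent by construction. With the planned controls, which hold the Dap, Lys, Phe and Thr sets, in place of the 16 chosen after seeing the data, 0 listed genes lay above the highest control on all arrays. The causes of these shifts were not tested.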
